A study of Arabidopsis thaliana with 8 samples.

Results

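The transcripts of 10 genes were described in etiolated Arabidopsis thaliana seedlings, 8 that encode enzymes of brassinosteroid synthesis (DWF1, DWF4, CPD, DET2, ROT3, CYP90D1, BR6OX1 and BR6OX2) and 2 that encode enzymes of brassinosteroid inactivation (BAS1 and SOB7). They were chosen by locus code, and all 10 were found among the 27416 gene models of the series. RNA sequencing covered 4 groups of 2 libraries of 4.5-day-old seedlings, grown on 1% sucrose medium at 22 °C with 4 days of darkness. The wild type was Col. Where it stayed dark it is called WT dark. After 1 h of red light (50 µmol per square metre and second) it is called WT red. The phyB mutant and the phyAB double mutant after the same red light are called phyB red and phyAB red. PhyB and phyAB lack, by their names, the red light receptor phytochrome B alone or with the far-red and red receptor phytochrome A; the labels do not describe the alleles. Mutants kept dark are not analysed here, so a difference between a mutant and the wild type may already be present in darkness.

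Brassinosteroids are plant steroid hormones that promote cell elongation. Seedlings that cannot make them stay short in darkness and open their cotyledons as if in light, so the pathway is known as a part of etiolated growth. DWF1 makes campesterol, the sterol precursor, by reducing a side-chain double bond. DWF4, CPD, ROT3 and CYP90D1 are cytochrome P450 enzymes of the CYP90 family that oxidise the side chain or the ring, and DWF4 is regarded as the rate-limiting one. DET2 is a steroid reductase. BR6OX1 and BR6OX2 are P450 enzymes of the CYP85 family that carry out the last oxidations, and BR6OX2 also forms brassinolide, the most active of these hormones. BAS1 and SOB7 are related P450 enzymes, and more of either makes seedlings shorter. Both were found through activation-tagged lines in which the long hypocotyl of a phyB mutant was suppressed. The transcription factors BZR1 and BES1, which act at the end of the hormone's signalling chain, repress synthesis genes in a feedback.

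The promoters of 4 genes are shown because their changes are among the larger ones below: CPD and SOB7 were lower after red light, and BR6OX2 and BAS1 were highest in phyB red. Each line gives the 300 bases before the annotated gene start, read 5′ to 3′ on the gene's strand, from the RefSeq genome of build TAIR10.1. Capitals mark matches to any of 6 letter strings searched on both strands.
CPD, chr5:1706949-1707248, minus strand: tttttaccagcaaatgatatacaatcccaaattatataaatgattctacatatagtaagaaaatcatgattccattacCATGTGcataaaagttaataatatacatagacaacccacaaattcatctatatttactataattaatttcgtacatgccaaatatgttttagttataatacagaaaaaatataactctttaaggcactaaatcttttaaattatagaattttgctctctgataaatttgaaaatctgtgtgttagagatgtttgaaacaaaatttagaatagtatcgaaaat
SOB7, chr1:5835489-5835788, minus strand: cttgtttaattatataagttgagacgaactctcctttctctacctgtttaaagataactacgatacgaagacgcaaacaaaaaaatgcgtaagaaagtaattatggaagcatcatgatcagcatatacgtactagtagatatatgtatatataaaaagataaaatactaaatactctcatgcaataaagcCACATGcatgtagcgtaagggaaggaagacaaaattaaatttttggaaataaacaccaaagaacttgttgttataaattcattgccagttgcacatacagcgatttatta
BR6OX2, chr3:11810426-11810725, plus strand: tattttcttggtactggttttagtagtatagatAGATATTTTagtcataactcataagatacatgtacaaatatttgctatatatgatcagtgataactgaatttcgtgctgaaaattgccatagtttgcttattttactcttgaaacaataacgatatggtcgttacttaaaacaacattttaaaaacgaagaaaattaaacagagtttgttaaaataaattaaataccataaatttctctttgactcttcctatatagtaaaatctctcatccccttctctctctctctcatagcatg
BAS1, chr2:11380163-11380462, plus strand: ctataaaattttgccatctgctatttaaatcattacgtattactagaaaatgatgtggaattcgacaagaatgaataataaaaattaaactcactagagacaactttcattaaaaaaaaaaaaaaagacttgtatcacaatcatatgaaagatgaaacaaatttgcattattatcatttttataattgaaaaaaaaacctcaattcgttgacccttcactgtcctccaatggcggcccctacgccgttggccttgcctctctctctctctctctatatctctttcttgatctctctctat
The capitals in CPD and SOB7 are CACATG or its reverse complement, the variant E-box that phytochrome interacting factors can bind. In CPD it lay at positions -222 to -217 from the start, and in SOB7 at -110 to -105. The capitals in BR6OX2 are the reverse complement of the evening element AAAATATCT, at -267 to -259, a string known from clock-regulated promoters. BAS1 held no match in this window. Over the 10 promoters, CACATG was found in 6 (DWF1, CPD, DET2, CYP90D1, BR6OX1 and SOB7), against 13.1% of the promoters of 27443 protein-coding genes. AAAATATCT was found in 1 of 10, against 2.79%, and the clock-related string AAAAATCT in 2 (ROT3 and CYP90D1), against 7.94%. The G-box CACGTG (7.09% of promoters) and the brassinosteroid response element, searched as CGTGTG (6.11%) and CGTGCG (1.78%), had no match among the 10. In the promoter of DWF1 a match on each strand overlapped the other. A match is a string of letters and not a shown binding site.

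The libraries held 15926547 to 22116924 reads, and every one of the 10 genes had enough reads to be tested, from 144 reads for CYP90D1 in a phyAB red library to 9015 for DWF1 in the other. PHYA and PHYB were measured as a check of the genotypes. PHYA stood at 124 and 123 CPM (a gene's reads relative to the library total, scaled between libraries) in phyAB red and at 463 CPM or more elsewhere, and PHYB at 50.4 to 64.3 CPM in the 4 mutant libraries and at 80.7 CPM or more in the wild type. Marker genes differed between the groups. PORA, a gene of etiolated tissue, stood at 135 and 141 CPM in WT dark, 16.8 to 21.2 CPM in the WT red and phyB red libraries, and 380.5 and 379.6 CPM in phyAB red. The summed level of 4 root genes, all detected in every library, was 19345 to 19347 CPM in WT red, 15357.5 to 15365.5 CPM in WT dark, 17413 to 17516 CPM in phyAB red and 12101.5 to 12165.7 CPM for phyB red. Most of this sum was PYK10, with group means of 18228, 13645, 11090.4 and 15792 CPM in the order WT red, WT dark, phyB red and phyAB red, and the other root genes did not follow it. In the same order TIP2-3 had means of 759.8, 1350.4, 668 and 1254 CPM, CASP1 176, 181, 199 and 226 CPM, and RCI3 182, 184, 176 and 193 CPM. The summed level of 3 seed genes, of which 2 or 3 were detected per library, was 50.8 and 51.4 CPM in phyAB red and 0.436 to 1.34 CPM in the other 6 libraries. The flower gene AP1 was at 0 reads in all libraries. The part of these marker differences in the results below was not tested. The seedlings were sampled whole, so fewer cells of a type and less RNA per cell cannot be told apart.

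Levels per length are given in RPKM (reads scaled by gene model length and library total, as computed by the authors). DWF1 (AT3G19820, chromosome 3, 6879524 to 6882315, minus strand) had the highest level of the 10 in every library, 229 and 233 RPKM in WT dark and 183 to 214 RPKM in the other libraries. ROT3 (AT4G36380, chromosome 4, 17187528 to 17192507, minus strand) lay at 67.2 to 79.6 RPKM and CPD (AT5G05690, chromosome 5, 1702640 to 1706948, minus strand) at 59.3 to 95.8 RPKM, and their order changed between the groups, with CPD above ROT3 in WT dark and below it in the other 6 libraries. BR6OX2 (AT3G30180, chromosome 3, 11810726 to 11813883, plus strand) lay at 55.3 to 102 RPKM, above both of these in phyB red and WT red and below both in WT dark, and DWF4 (AT3G50660, chromosome 3, 18813949 to 18817405, minus strand) at 38.9 to 47.8 RPKM. DET2 (AT2G38050, chromosome 2, 15921136 to 15922321, minus strand) was lower, at 11.6 to 18.9 RPKM. The lowest levels were those of BR6OX1 (AT5G38970, chromosome 5, 15594674 to 15598089, minus strand), at 6.79 to 9.29 RPKM, and CYP90D1 (AT3G13730, chromosome 3, 4497893 to 4500920, minus strand), at 4.53 to 6.52 RPKM. Of the inactivation genes, SOB7 (AT1G17060, chromosome 1, 5832094 to 5835488, minus strand) stood at 28.0 to 55.9 RPKM and BAS1 (AT2G26710, chromosome 2, 11380463 to 11383821, plus strand) at 14.6 to 25.5 RPKM. The coordinates are those of TAIR10.1.

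**Figure D1:**
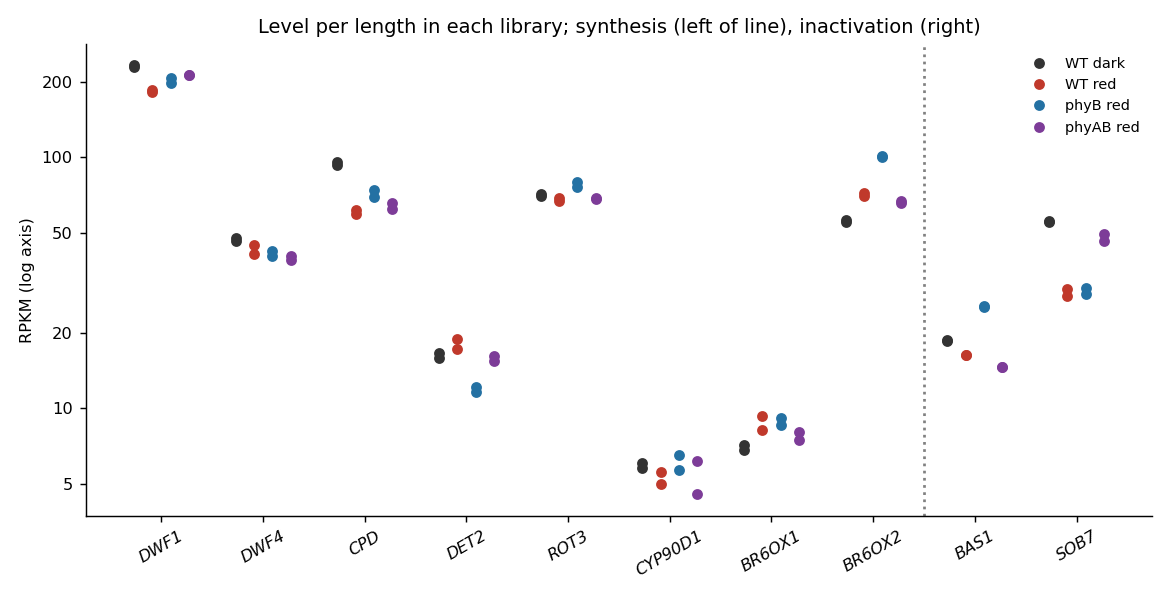
RPKM of the 10 genes in each library, on a log axis, with 2 points per group and synthesis genes left of the dotted line. DWF1 lies above 180 RPKM in every library and CYP90D1 below 7 RPKM, and SOB7 lies above BAS1 in all 8 libraries.

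Pairs of enzymes that share a reaction had unequal transcript levels. BR6OX2 was higher than BR6OX1 by 7.56 to 8.87 times in RPKM in the WT dark, WT red and phyAB red libraries and by 11.02 and 11.8 times in phyB red. ROT3 exceeded CYP90D1, the other enzyme of its step, by 11.3 to 15.1 times, and these ratios overlapped between the 4 groups. Coding sequences of BR6OX1 and BR6OX2 were 81.9% identical over 1398 aligned bases, with a longest shared run of 32 bases, so reads of the pair can mostly be told apart if they are longer than that run. The other related pairs were 60.6% to 65.4% identical over their aligned bases, with shared runs of 11 to 18 bases. For BAS1 and SOB7, with coding sequences of 1563 and 942 bases, only 924 bases were aligned. Read length, and how reads matching several genes were handled, is not given in the sources used here.

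**Figure D2:**
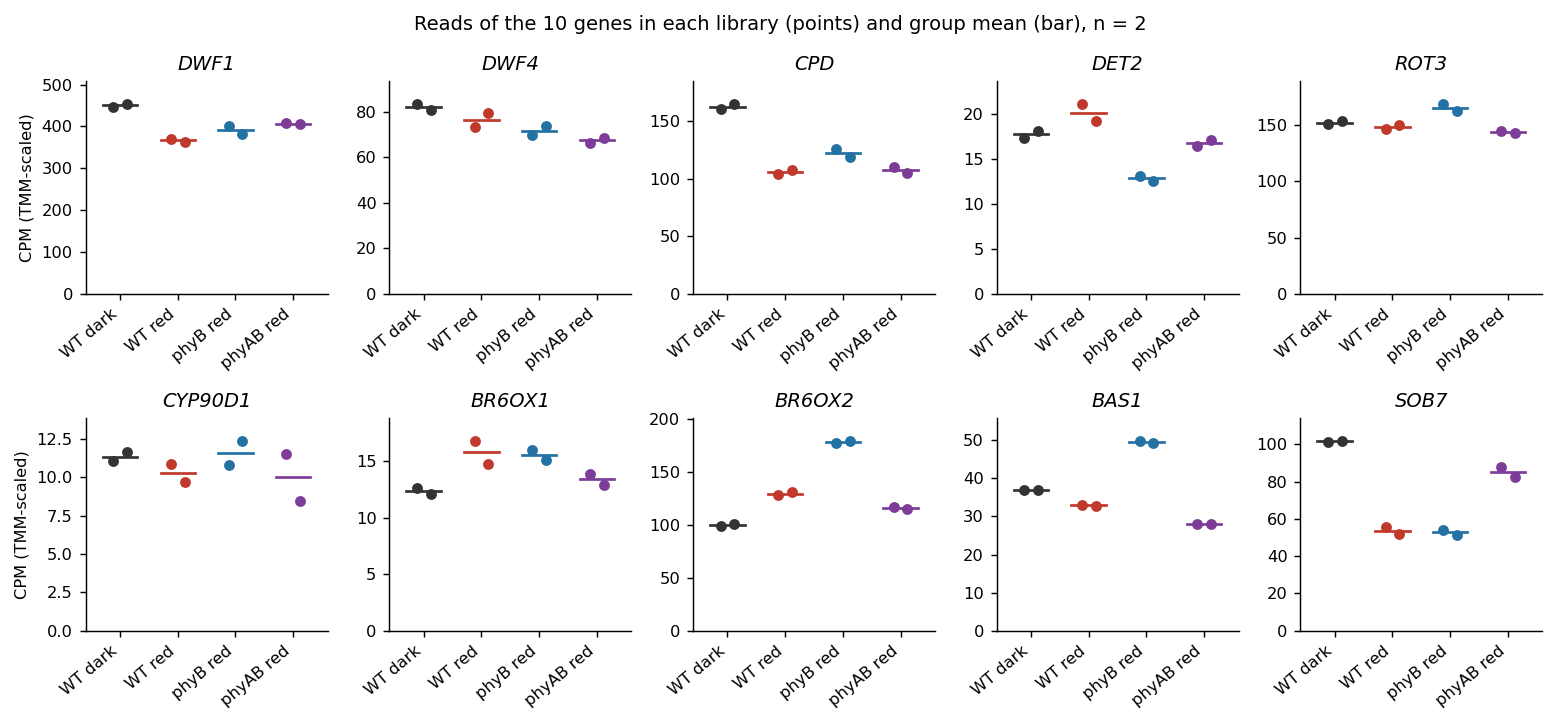
CPM of each of the 10 genes, 1 panel per gene with its own axis from 0, with points for the 2 libraries of a group and a bar for their mean. SOB7 and CPD are highest in WT dark, and BR6OX2 and BAS1 are highest in phyB red.

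WT red was compared with WT dark to see how the pathway's transcripts changed in the wild type within 1 h of red light. Lower after red light were SOB7, CPD, DWF1, BAS1 and DWF4, and higher were BR6OX2 and BR6OX1. SOB7 showed the largest change. Its WT dark libraries had 101 and 102 CPM and its WT red libraries 55.4 and 52.0 CPM, 1.89-fold lower (log2 -0.92 ± 0.05, n = 2 libraries per group, edgeR adjusted p = 3.95e-31). The SE after each log2 value comes from the quasi-likelihood fit. Of the tested genes, 11.8% changed more than SOB7 in this comparison. An annotated gene on the other strand, AT1G17065, shares 1728 of the 3395 bases of the SOB7 gene. Its reads were not analysed separately here and the strand of the libraries is not given, so they may be counted within SOB7.

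CPD, which oxidises the steroid ring, had 160.1 and 165 CPM in darkness and 104 and 108 CPM after red light. Both red libraries were below both dark ones, and the level was 1.54-fold lower (log2 -0.62 ± 0.04, edgeR adjusted p = 8.41e-26). DWF1 had 446 and 454 CPM in darkness and 370.3 and 363 CPM after red light, 1.23-fold lower (log2 -0.30 ± 0.02, edgeR adjusted p = 6.83e-19). BR6OX2 went the other way, from 99.0 and 101 CPM to 128 and 131 CPM, 1.30-fold higher (log2 0.38 ± 0.04, edgeR adjusted p = 2.94e-14). Its paralogue BR6OX1 stood at 12.6 and 12.1 CPM in the dark and at 16.8 and 14.8 CPM after red light (log2 0.36 ± 0.10, edgeR adjusted p = 0.00235), so both genes of the last oxidation were higher and their RPKM ratio overlapped between the groups. BR6OX1 did not pass without WT red replicate 1 (adjusted p = 0.119) or WT dark replicate 2 (adjusted p = 0.0513).

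Small differences were found for BAS1 and DWF4. BAS1 had 36.9 and 36.8 CPM in darkness and 32.9 and 32.8 CPM after red light (log2 -0.16 ± 0.06, edgeR adjusted p = 0.0249), and DWF4 at 83.5 and 80.8 CPM and then 73.5 and 79.5 CPM (log2 -0.11 ± 0.05, edgeR adjusted p = 0.042). BAS1 did not pass without WT red replicate 1 (adjusted p = 0.101), without WT red replicate 2 (adjusted p = 0.0932) or with DESeq2 (adjusted p = 0.0879). DWF4 did not pass without WT red replicate 1 (adjusted p = 0.555), without WT dark replicate 1 (adjusted p = 0.0793), with DESeq2 (adjusted p = 0.121), with no filter on low counts (adjusted p = 0.0588) or with only these 2 groups in the fit (adjusted p = 0.052). DET2 (17.4 and 18.2 CPM, then 21.2 and 19.2 CPM, adjusted p = 0.0751), ROT3 (151 and 153 CPM, then 147 and 150.1 CPM, adjusted p = 0.433) and CYP90D1 (11.1 and 11.6 CPM, then 10.9 and 9.71 CPM, adjusted p = 0.401) did not pass in edgeR. DET2 passed without WT red replicate 2 (adjusted p = 0.0489), and ROT3 with upper-quartile scaling (log2 -0.09, adjusted p = 0.0246).

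In all, 2 of the 10 genes were higher and 5 lower at an adjusted p under 0.05, in a comparison in which 24.1% of the 20716 tested genes were higher and 22.7% lower. The median absolute log2 change was 0.24 over the 10 genes and 0.23 over all tested genes. The spread within groups was small, though above counting error, so small changes pass this test. Tested against a 1.5-fold change (edgeR's glmTreat), SOB7 alone of the 10 passed (adjusted p = 4.79e-10), where 11.1% of all tested genes did. CPD missed that threshold (adjusted p = 0.44).

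**Figure D3:**
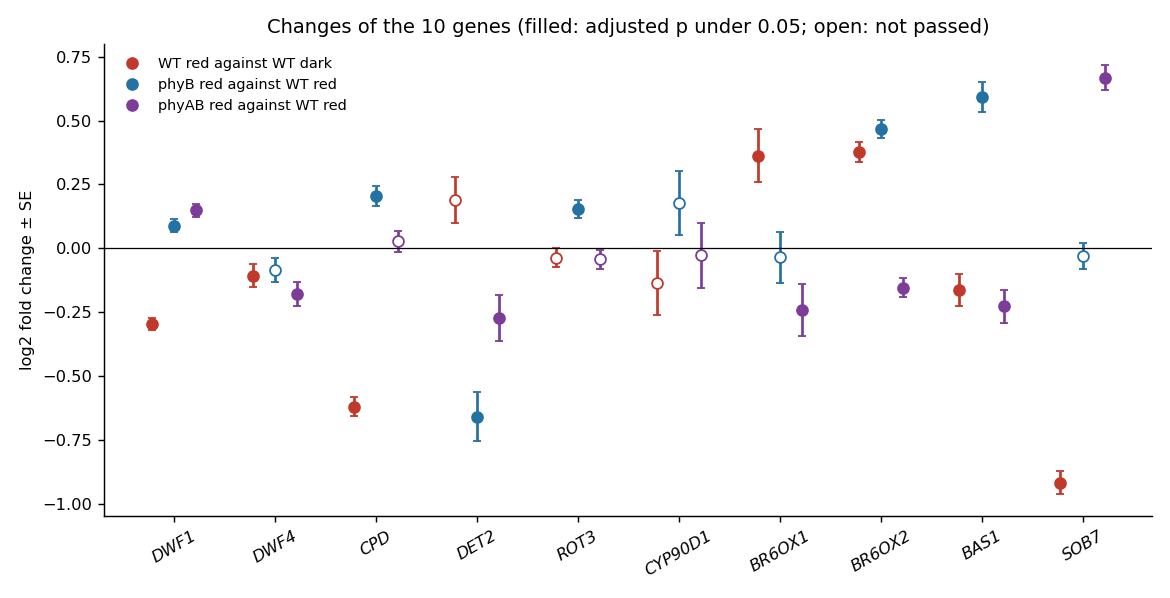
Log2 fold change ± SE of the 10 genes in 3 comparisons, with filled points for an adjusted p under 0.05. WT red against WT dark and each mutant against WT red share the WT red libraries. SOB7 is lowest in WT red against WT dark (-0.92) and highest in phyAB red against WT red (0.67), while BAS1 is highest in phyB red against WT red (0.59).

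PhyB red and WT red set the phyB line against the wild type after the same red light. BAS1, BR6OX2, CPD, ROT3 and DWF1 were higher in phyB red, and DET2 was lower. BAS1 had 49.9 and 49.4 CPM there and 32.9 and 32.8 CPM in WT red, 1.51-fold higher (log2 0.59 ± 0.06, edgeR adjusted p = 4.14e-14). The phyB red libraries were also above both WT dark libraries (log2 0.43 ± 0.06 against WT dark, edgeR adjusted p = 4.72e-10), so BAS1 had its highest level of the 4 groups there. Of the root genes, PYK10, TIP2-3 and RCI3 had their lowest means in phyB red, and CASP1 was higher there than in WT red (values above). RCI3 did not pass against WT red (edgeR adjusted p = 0.382). The part of the root genes in the results for phyB red was not tested. BR6OX2 stood at 178 and 180.1 CPM, 1.38-fold above WT red (log2 0.47 ± 0.04, edgeR adjusted p = 3.55e-20), and again above every other library of the series. BR6OX1 had 16.0 and 15.1 CPM, inside the range of the WT red libraries, and did not pass (log2 -0.03 ± 0.10, edgeR adjusted p = 0.85).

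DET2, the steroid reductase, was the gene that was lower. It had 13.2 and 12.6 CPM, below the other 6 libraries, and was 1.58-fold below WT red (log2 -0.66 ± 0.10, edgeR adjusted p = 1.69e-08). It lies beside CAC3 on the other strand, with which it shares 35 of 1186 bases, and CAC3 had 227 and 228 CPM there and 215 and 205 CPM in WT red. CPD was higher at 126 and 119 CPM (log2 0.20 ± 0.04, edgeR adjusted p = 2.16e-05), but remained below WT dark (log2 -0.42 ± 0.04, edgeR adjusted p = 2.33e-17). ROT3 had 169 and 162 CPM, the highest levels of the 4 groups (log2 0.16 ± 0.04 against WT red, edgeR adjusted p = 0.000245). DWF1 had 401 and 381 CPM (log2 0.09 ± 0.03, edgeR adjusted p = 0.00713) and did not pass without WT red replicate 2 (adjusted p = 0.128), nor with phyB red replicate 1 left out (adjusted p = 0.277).

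SOB7 did not pass in phyB red against WT red. It had 54.2 and 51.6 CPM, which overlap the WT red values (log2 -0.03 ± 0.05, edgeR adjusted p = 0.73). DWF4 (69.9 and 73.6 CPM, adjusted p = 0.179) and CYP90D1 (10.8 and 12.4 CPM, adjusted p = 0.32) did not pass either. Of the 10 genes, 5 were higher and 1 lower, where 13.1% of all tested genes were higher and 14.0% lower. Against a 1.5-fold change, 0 of the 10 passed in edgeR's glmTreat, where 1.83% of all tested genes did. At an unadjusted p under 0.05 it was 0 of the 10 and 3.91% of all tested genes. The median absolute log2 change was 0.17 over the 10 genes and 0.15 over all tested genes.

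PhyAB red and WT red set the double mutant against the wild type after red light, with the same WT red libraries as the comparison above. SOB7 and DWF1 were higher in phyAB red, and DET2, BR6OX1, BAS1, DWF4 and BR6OX2 were lower. SOB7 stood at 87.9 and 82.8 CPM against 55.4 and 52.0 CPM in WT red, 1.59-fold higher (log2 0.67 ± 0.05, edgeR adjusted p = 6.0e-22). The summed seed genes, PORA and the root genes TIP2-3, CASP1 and RCI3 were also higher in phyAB red than in WT red, and PYK10 was lower (values above). Over the groups, the means of TIP2-3 ran in the same order as those of SOB7, and those of PYK10, CASP1 and RCI3 did not. The part of these markers in this result was not tested. SOB7 remained below WT dark (log2 -0.25 ± 0.04, edgeR adjusted p = 3.66e-07). DWF1 stood at 407 and 406 CPM (log2 0.15 ± 0.02 against WT red, edgeR adjusted p = 3.17e-07), also below both WT dark libraries (log2 -0.15 ± 0.02, edgeR adjusted p = 3.18e-08).

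CPD differed from these 2 genes. At 110.2 and 105 CPM it overlapped WT red and did not pass (log2 0.03 ± 0.04, edgeR adjusted p = 0.631), and it was 1.51-fold below WT dark (log2 -0.59 ± 0.04, edgeR adjusted p = 4.15e-25). CPD shares 20 bases at one end with MOS7 on the other strand, and MOS7 had 15.0 to 25.4 CPM over all libraries. MOS7 stood at log2 -0.63 in WT red against WT dark, where CPD stood at -0.62. Against WT red, MOS7 stood at log2 0.16 in phyB red and 0.32 in phyAB red. The part of MOS7 in the CPD values was not tested. BAS1 had 28.1 CPM in both phyAB red libraries, its lowest level of the 4 groups (log2 -0.23 ± 0.07 against WT red, edgeR adjusted p = 0.00271). BR6OX2 had 117 and 115 CPM (log2 -0.15 ± 0.04, edgeR adjusted p = 0.000346), between WT dark and WT red. DWF4 had 66.4 and 68.7 CPM, its lowest level of the 4 groups (log2 -0.18 ± 0.05, edgeR adjusted p = 0.000916), and did not pass without WT red replicate 2 (adjusted p = 0.072).

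DET2 had 16.4 and 17.2 CPM (log2 -0.27 ± 0.09, edgeR adjusted p = 0.0095) and BR6OX1 13.9 and 12.9 CPM (log2 -0.24 ± 0.10, edgeR adjusted p = 0.0452). DET2 did not pass without WT red replicate 1 (adjusted p = 0.186), without phyAB red replicate 1 (adjusted p = 0.101) or with DESeq2 (adjusted p = 0.076). BR6OX1 did not pass without WT red replicate 1 (adjusted p = 0.442) or with either phyAB red library left out (adjusted p = 0.0657 and 0.202), nor with upper-quartile scaling (adjusted p = 0.0913) or DESeq2 (adjusted p = 0.173). ROT3 (145 and 143 CPM, adjusted p = 0.341) and CYP90D1 (11.5 and 8.48 CPM, adjusted p = 0.888) did not pass. Of the 10 genes, 2 were higher and 5 lower, where 22.3% of all tested genes were higher and 22.7% lower. Against a 1.5-fold change, 0 of the 10 passed in edgeR's glmTreat, where 7.92% of all tested genes did. At an unadjusted p under 0.05 it was 1 of the 10 (SOB7) and 11.4% of all tested genes.

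Between the mutants, the inactivation genes differed in opposite directions. Relative to phyB red, BAS1 was 1.77-fold lower in phyAB red (log2 -0.82 ± 0.06, edgeR adjusted p = 2.44e-21) and SOB7 was 1.62-fold higher (log2 0.70 ± 0.05, edgeR adjusted p = 1.85e-23). The RPKM of SOB7 divided by that of BAS1 was 3.39 and 3.19 in phyAB red, 2.98 and 3.01 in WT dark, 1.82 and 1.72 for WT red and 1.18 and 1.13 for phyB red. The ratio thus did not overlap between any of the 4 groups, though reads of AT1G17065 may be counted within SOB7, as said above. Among synthesis genes, BR6OX2 was 1.54-fold lower in phyAB red than in phyB red (log2 -0.62 ± 0.04, edgeR adjusted p = 5.99e-28), and ROT3 (log2 -0.20 ± 0.03, adjusted p = 8.03e-07) and CPD (log2 -0.18 ± 0.04, adjusted p = 7.01e-05) were lower as well. DET2 was higher (log2 0.39 ± 0.10, edgeR adjusted p = 0.00045). DWF1 was slightly higher (log2 0.06 ± 0.02, edgeR adjusted p = 0.0177), and its adjusted p lay between 0.0535 and 0.666 in 7 alternatives (DESeq2, no filter on low counts, or without WT red replicate 2, either WT dark replicate, phyB red replicate 2 or phyAB red replicate 1). CYP90D1 (log2 -0.20 ± 0.12, adjusted p = 0.164) passed only without phyAB red replicate 1 (log2 -0.46, adjusted p = 0.0125).

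In this comparison 3 of the 10 genes were higher and 4 lower, where 26.0% of all tested genes were higher and 24.1% lower. BAS1 (adjusted p = 0.000232) and SOB7 (adjusted p = 0.02) passed against a 1.5-fold change, as did 11.5% of all tested genes. Without phyB red replicate 2, or without phyAB red replicate 1, 1 of the 10 genes passed it.

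**Figure D4:**
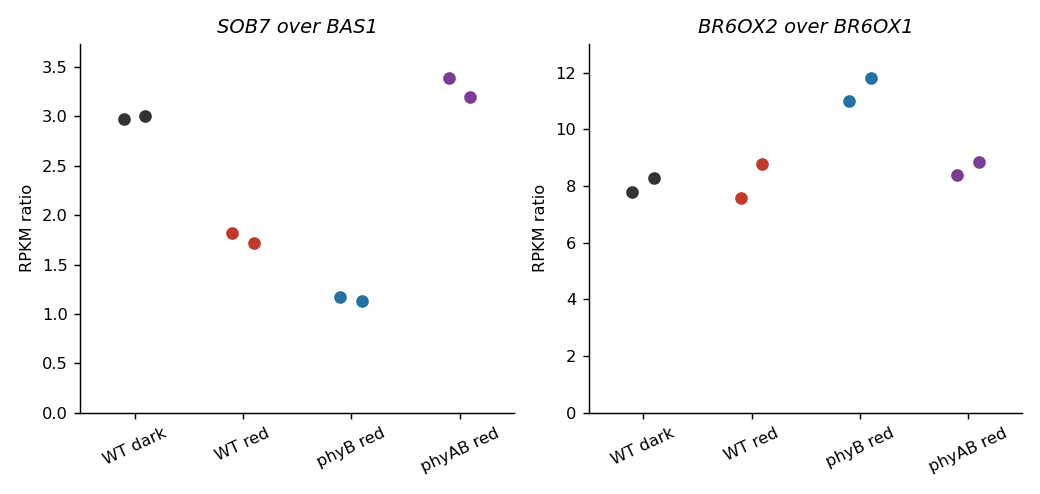
Ratio of RPKM between related enzymes in each library, for SOB7 over BAS1 and BR6OX2 over BR6OX1, on axes from 0. The first ratio is 1.13 to 1.18 in phyB red and 3.19 to 3.39 in phyAB red, and the second is highest in phyB red (11.02 and 11.8). SOB7 may include reads of AT1G17065.

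Set against WT dark, which differs from both mutants in light and genotype, phyB red had 4 of the 10 genes higher and 5 lower, where 27.4% and 27.1% of all tested genes were. BR6OX2 (log2 0.84 ± 0.04) and SOB7 (log2 -0.95 ± 0.05) passed against a 1.5-fold change there, as did 13.1% of all tested genes. PhyAB red had 1 higher (BR6OX2) and 5 lower than WT dark, where 27.2% and 21.0% of all tested genes were. Against a 1.5-fold change 0 of the 10 passed in edgeR's glmTreat, while 8.35% of all tested genes did. At an unadjusted p under 0.05 it was 0 of the 10 and 11.9% of all tested genes. The background of phyAB red against WT dark depended on the fit. In the reported fit 56.45% of the called genes were higher, and the median log2 over all tested genes was 0.043. With only these 2 groups in the fit the values were 49.9% and 0.0039. Some calls against WT dark depended on the setting. In phyB red, ROT3 (log2 0.12 ± 0.03, adjusted p = 0.00214) did not pass without WT dark replicate 1 (adjusted p = 0.112) or with upper-quartile scaling (adjusted p = 0.116), and BR6OX1 (log2 0.33 ± 0.10, adjusted p = 0.00476) did not without WT dark replicate 2 (adjusted p = 0.0655). In phyAB red, ROT3 (adjusted p = 0.0536) passed in 5 alternatives, with adjusted p of 0.00316 to 0.0364, among them leaving out either WT dark library. CYP90D1 (adjusted p = 0.287) passed there without phyAB red replicate 1 (log2 -0.42, adjusted p = 0.0273). The range of a gene over the series, as its highest group mean over its lowest, was 1.92 for SOB7, 1.79 for BR6OX2, 1.77 for BAS1, 1.57 for DET2 and 1.53 for CPD. It was 1.28 for BR6OX1, 1.23 for DWF1, 1.22 for DWF4, 1.16 for CYP90D1 and 1.15 for ROT3.

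By the order of the groups, SOB7 ran from WT dark through phyAB red to WT red and phyB red, of which the last 2 did not differ beyond their spread. CPD ran from WT dark through phyB red to phyAB red and WT red, and again the last 2 did not differ. BR6OX2 ran from phyB red through WT red and phyAB red to WT dark, with a difference between all neighbours. BAS1 ran from phyB red through WT dark and WT red to phyAB red, and its difference between the wild-type groups is the one that depended on single libraries. DWF4 ran from WT dark through WT red and phyB red to phyAB red, and neither WT red and phyB red nor phyB red and phyAB red (adjusted p = 0.0859) differed in edgeR.

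The genes with the pattern nearest to DWF4 over the 8 libraries were CHR11 (AT3G06400), AT4G27745 and REV1 (AT5G44750), at a root mean square difference of 0.02 to 0.03 in log2 CPM after centring each gene. Their group means ran in the same order, in CHR11 from 145 CPM in WT dark to 122 CPM in phyAB red. Nearest to BAS1 were ST2B (AT5G07000), AT1G21830 and PYL4 (AT2G38310), at 0.04 to 0.06. PYL4, a gene of the abscisic acid receptor family, had means of 38.1 CPM in phyAB red, 46.7 CPM in WT red, 52.2 CPM in WT dark and 73.7 CPM for phyB red. These were picked as the closest of 19267 genes, so their like group means follow from the choice, and nearness was not tested.

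Further genes of the pathway were taken from 4 lists. Their counts stand beside the shares of all tested genes that passed, which were 24.1% higher and 22.7% lower in WT red against WT dark, 13.1% and 14.0% in phyB red against WT red, and 22.3% and 22.7% in phyAB red against WT red. Enzymes that make the sterol precursors, 17 genes, had 6 higher and 6 lower after red light in the wild type (median log2 0.02, range -0.70 to 1.35), next to a median of 0.00 over all tested genes. The sterol oxidase gene SMO1-3 was higher (log2 1.35 ± 0.33) at a low level of 16 to 56 reads per library, and CPI1 (log2 -0.70 ± 0.12), a cyclopropylsterol isomerase, and the sterol methyltransferase gene SMT3 (log2 -0.42 ± 0.04) were lower. SMO2-1 (log2 0.54 ± 0.06) and FK (log2 0.39 ± 0.09), a sterol reductase gene, exceeded WT red in the phyB red libraries, where 5 of the 17 were higher and 3 lower. In phyAB red 3 were higher and 6 lower than in WT red, among them SMO1-2 (log2 0.63 ± 0.15) and SMO1-3 (log2 -1.03 ± 0.31). The largest adjusted p of the genes named here was 0.00452.

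Of 7 other genes whose enzymes conjugate or reduce brassinosteroids, 6 were tested and 2 were higher in WT red than in WT dark. These were the glucosyltransferase genes UGT73C5 and UGT73C6, which lie next to each other on chromosome 2 and are alike in sequence, and how their reads were divided is therefore uncertain. UGT73C5 had 0.901 and 0.591 CPM in WT dark (18 and 11 reads), 8.60 and 7.77 CPM for WT red, 5.33 and 4.95 CPM in phyAB red and 4.43 and 5.84 CPM for phyB red. It was 10.8-fold higher in WT red than in WT dark (log2 3.44 ± 0.25, edgeR adjusted p = 8.13e-22), a larger change than that of any of the 10 genes. It was lower than WT red in phyB red (log2 -0.65 ± 0.17, adjusted p = 0.0014) and in phyAB red (log2 -0.67 ± 0.17, adjusted p = 0.000538). UGT73C6 rose from 2.10 and 0.859 CPM to 3.99 and 4.32 CPM (log2 1.46 ± 0.26, edgeR adjusted p = 1.22e-06) and was lower in phyAB red than in WT red (log2 -0.57 ± 0.23, adjusted p = 0.0344). The sulfotransferase gene SOT12 was lower in phyB red than in WT red (log2 -0.42 ± 0.09, edgeR adjusted p = 0.000196). Of the 6, 1 was higher and 3 lower in phyB red (13.1% and 14.0% of all tested genes), and 1 higher and 2 lower in phyAB red (22.3% and 22.7%), relative to WT red.

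Among 12 listed regulators of these genes, acting directly or through other regulators, 10 were tested. After red light in the wild type 4 of them were higher (24.1% of all tested genes) and 4 lower (22.7%). PIF5 and PIF4, which encode phytochrome interacting factors, stood at log2 1.33 ± 0.06 and 1.31 ± 0.05 there and at log2 -1.16 ± 0.06 and -1.17 ± 0.05 in phyAB red against WT red, each with an edgeR adjusted p of at most 1.41e-31. ATAF2, a NAC factor reported to repress BAS1 and SOB7, was lower after red light in the wild type (log2 -0.55 ± 0.07, edgeR adjusted p = 4.56e-10) and lower still in phyB red (log2 -0.21 ± 0.08, edgeR adjusted p = 0.0469). In phyAB red ATAF2 was higher than in WT red (log2 0.49 ± 0.07, edgeR adjusted p = 1.81e-08), as was SOB7, while BAS1 was lower. After red light in the wild type SOB7 and BAS1 were lower, as ATAF2 was. In phyB red against WT red BAS1 was higher and SOB7 did not pass. The part of ATAF2 in the levels of BAS1 and SOB7 was not tested. The Dof factor gene COG1 (AT1G29160) was lower in phyB red than in WT red (log2 -0.52 ± 0.17, edgeR adjusted p = 0.0134). Relative to WT red, 1 of the 10 was higher and 4 lower in phyB red (13.1% and 14.0% of all tested genes), and 3 were higher and 3 lower in phyAB red (22.3% and 22.7%).

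Of 10 signalling genes from receptor to BES1, 5 were lower after red light in the wild type (22.7% of all tested genes) and the other 5 did not pass. BES1 (log2 -0.44 ± 0.04), its homologue BZR1 (log2 -0.29 ± 0.06) and the receptor gene BRI1 (log2 -0.25 ± 0.03) were among them, each with an edgeR adjusted p of at most 9.66e-06. BES1 and BZR1 also belong to the list of regulators above and are counted in both lists. BES1 stood at 106 CPM in both phyAB red libraries, above the 79.1 and 81.7 CPM of WT red (log2 0.40 ± 0.04, edgeR adjusted p = 5.19e-14), and BSK1, a kinase gene below the receptor, was lower (log2 -0.38 ± 0.04). BRL3, a receptor homologue, was lower in phyB red, with 19.0 and 21.2 CPM against 33.1 and 29.6 CPM in WT red (log2 -0.64 ± 0.07, edgeR adjusted p = 1.33e-11), as was BKI1, an inhibitor of the receptor (log2 -0.25 ± 0.09, edgeR adjusted p = 0.022). Relative to WT red, 2 of the 10 signalling genes were higher and 4 lower in phyB red (13.1% and 14.0% of all tested genes), and 3 were higher and 4 lower in phyAB red (22.3% and 22.7%).

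**Figure D5:**
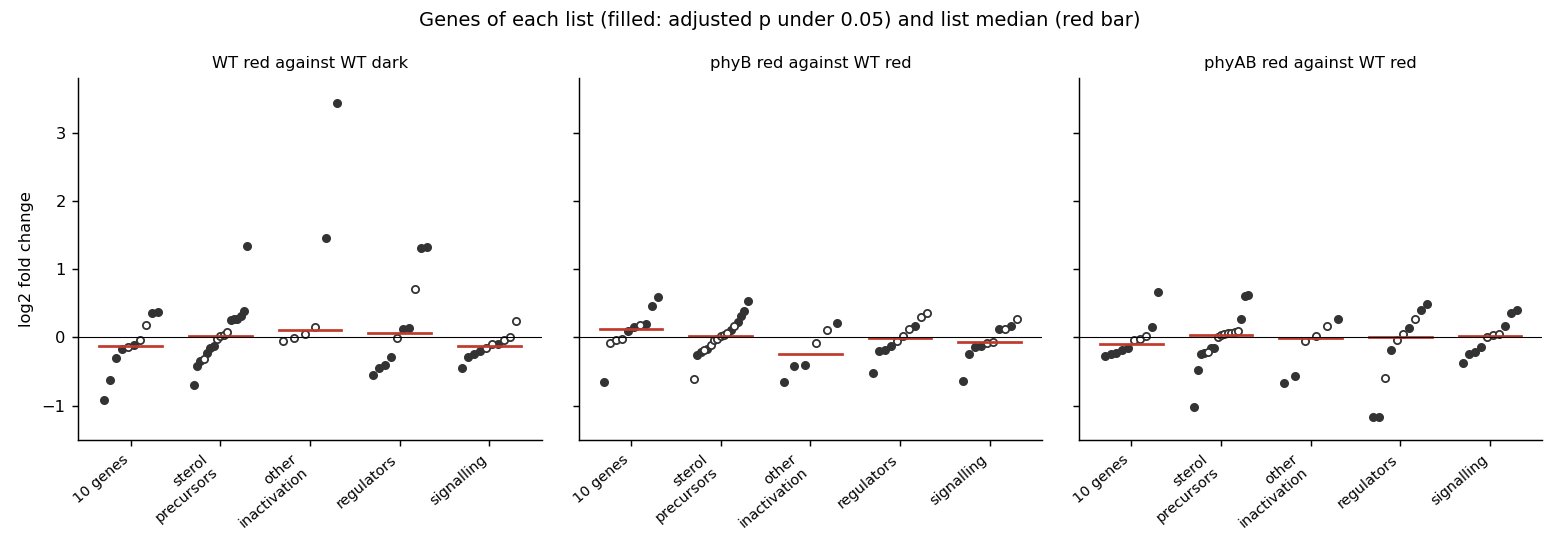
Log2 fold change of every tested gene of the 5 lists in 3 comparisons, with filled points for an adjusted p under 0.05 and a red bar for the list median. The point at 3.44 in WT red against WT dark is UGT73C5, and the 2 lowest regulators in phyAB red against WT red are PIF4 and PIF5.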

How the data were processed

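Each file gave, for 27416 gene models, the reads (counts) and the RPKM of 1 library, per the file headers. The deposited counts are raw whole numbers. The deposited RPKM values, by the authors, divide the reads by gene model length and library total. Build TAIR10 is named in the submitters' processing notes, and the aligner, counting tool, strandedness and read length were not given in the sources used here. Sequences and positions come from RefSeq's TAIR10.1 genome.

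Counts were tested in R 4.3.3 with edgeR 4.0.16: filterByExpr with a minimum count of 10 kept 20716 genes, TMM scaled the libraries, group means of the 4 groups were fitted over the 8 libraries, and quasi-likelihood tests of 6 contrasts were run with Benjamini-Hochberg adjustment over all tested genes at 0.05. A second rule tested against a 1.5-fold change (glmTreat). The SE is the absolute log2 fold change over the square root of the F statistic. Listed values in CPM are scaled by library total and TMM. DESeq2 1.42.0, other scalings, no filter, a replicate term, fits of 2 groups and leaving out each library were alternatives.

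The biological coefficient of variation was 1.59% (common estimate). The 2 libraries of each group differed by more than sampling noise (mean chi-square per gene 1.34 to 1.47). The labels do not say that they came from separate cultures, so the p-values rest on the spread of these samples alone, and that spread may be technical. The members and lists were chosen with earlier results of these data known. The genes named are all 10 members, PHYA and PHYB, up to 3 (wild type) or 2 (each mutant) genes with the largest called change per list whose mean CPM reached 1, and the 3 genes nearest in pattern to DWF4 and to BAS1. The markers are 1 gene of etiolated tissue, 4 of root, 3 of seed and 2 of flower, of which AP3 had 0 to 4 reads.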

Additional observations from a re-analysis of the deposited data

How the results depend on the processing

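Of 60 member values (10 genes in 6 comparisons), 40 kept their direction and their side of the threshold in all 14 alternatives, among them SOB7, CPD, BR6OX2 and DWF1 in WT red against WT dark and BAS1, BR6OX2 and DET2 in phyB red against WT red. The values that changed sign had an adjusted p over 0.05 in the reported fit and under the alternative. With upper-quartile scaling, CYP90D1 stood at log2 0.0080 in phyAB red against WT red and at -0.014 in phyB red against WT dark. Leaving out 1 library each, CYP90D1 ranged from -0.28 to 0.15 in phyAB red against WT red, from -0.074 to 0.13 in phyB red against WT dark and from -0.42 to 0.019 in phyAB red against WT dark. CPD ranged from -0.011 to 0.058 in phyAB red against WT red, and in phyB red against WT red BR6OX1 ranged from -0.12 to 0.068 and SOB7 from -0.072 to 0.019. The number of the 10 genes called in WT red against WT dark was 4 to 7 with 1 library left out, and 4 without WT red replicate 1. Changes over 1.5-fold between the mutants were 1 to 2. With upper-quartile scaling, 2 genes changed by more than 1.5-fold in WT red against WT dark and 1 in phyAB red against WT red; the cause was not tested. DESeq2 called 3660 genes in phyB red against WT red, where edgeR called 5608.

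Same-numbered libraries showed no shared deviation (correlations of -0.03 to 0.01 over 12723 genes). Much of the spread within groups was counting noise, so this cannot show whether they were grown or processed together. With a replicate block, 9680, 5600 and 9295 genes were called in WT red against WT dark, phyB red against WT red and phyAB red against WT red, and the block changed no call of the 10 genes. For CYP90D1, with 144 to 276 reads per library, the 2 phyAB red libraries differed by 30.3% of their mean, and its SE of 0.12 to 0.13 was the largest of the 10 genes in each comparison.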
